A study of Mus musculus with 2 samples.

Results

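The FGF pathway genes examined here are the FGF ligands (Fgf1 to Fgf23), the FGF receptors (Fgfr1 to Fgfr4 and Fgfrl1) and the genes through which ERK signalling feeds back on itself (Spry1 to Spry4, Spred1 to Spred3, Dusp4 to Dusp6, Etv1, Etv4, Etv5 and Il17rd). They were chosen by gene name, and 41 of the 37074 gene names on the array were on this list, with 80 of the 56605 distinct probes. They comprise 22 ligands, 5 receptors and 14 feedback genes. RNA was measured at 6 h in mDE6, a mouse cell line from the odontogenic epithelium, on single-colour Agilent arrays. The control cells received a DMSO vehicle according to the sample labels, whereas the methods call them untreated. The treated cells received CHIR99021, an inhibitor of GSK-3 that activates the β-catenin pathway, at 5 mM according to the labels and at 5 μM according to the methods. Each condition had 1 array, and the arrays shared a slide. Slide position and treatment therefore cannot be told apart, no difference had a replicate check and no p-value is given.

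FGFs are secreted factors that bind receptor tyrosine kinases together with heparan sulfate. The activated receptors signal through FRS adaptors, RAS and RAF to the kinase ERK, and ERK then raises transcription of PEA3-type ETS factors and of inhibitors such as Sprouty proteins and dual-specificity phosphatases, which dampen the same pathway. In tooth development, FGFs pass between epithelium and mesenchyme and out of the enamel knot, a signalling centre of the dental epithelium, next to Wnt signals. The Fgf11 to Fgf14 proteins are an exception, since they stay inside the cell and do not act as receptor ligands.

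In the values below, a signal is the spot intensity as quantified, before scaling, and brightness may be compared between the arrays for the same probe but not between different probes. The ratio is CHIR99021 over control after each array was scaled to its 75th percentile (486.7 for control and 469.17 for CHIR99021). The error after a log2 ratio is that of the scanner software's error model for both spots, which had a median of 0.21 over the member probes measured on both arrays. A probe was called lower at a ratio of 0.66 or lower together with a Z-score of -2.0 or lower, and higher at a ratio of 1.5 or more together with a Z-score of 2.0 or more, where the Z-score sets a log2 ratio against the 500 probes nearest in mean signal. Where a probe was well above background on 1 array only, its fold is a limit, which leaves out the error of the spots. For genes with several probes, values are those of the probe with the highest mean signal unless others are named.

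Among the members measured on both arrays, those that met the criteria were feedback genes and Fgf7. Dusp4 and Spry1 were higher on the CHIR99021 array, by 2.74-fold and 1.77-fold, while Dusp6 and Fgf7 were lower, at ratios of 0.481 and 0.599. With a Z-score against 1 mean and SD over all probes, in place of probes of like brightness, none of these 4 genes met the criteria. Fgf3 was well above background on the CHIR99021 array alone, and Fgf13 and Fgf17 on the control array alone. None of the receptors met the criteria. Of the 42 member probes detected on either array, 4 were called lower (9.52%) and 4 higher (9.52%), beside 2.72% lower and 2.35% higher among all 28066 tested probes.

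The probes behind these calls are shown because each stands for 1 short stretch of its transcript. Each is given with its mm9 coordinates and the first 30 of its 60 bases, from the 5′ end. Where in the transcript they lie was not examined, and a probe reports on its own stretch alone.
Fgf7 A_55_P2789997 (chr2:125916134-125916193, + strand): gctcttcccacaaataatcatgcttatttc
Dusp4 A_51_P347333 (chr8:35884806-35884865, + strand): tcaagggacttcagtaagataacaatgcaa
Dusp4 A_51_P518051 (chr8:35882045-35882104, + strand): aataacggcggtttccgctgccagagaaga
Dusp6 A_51_P502614 (chr10:98729985-98730044, + strand): catttggtggatgcaacaggttgagaggaa
Spry1 A_51_P490136 (chr3:37543194-37543253, + strand): agctgagtatttccaacccttcctgtgttt
Fgf3 A_55_P2483251 (chr7:152029194-152029253, + strand): gaccgtggagggggctgtgattcacacatt
Fgf13 A_55_P2139814 (chrX:56504014-56504073, - strand): attaaagaaaaaagagtccccctttcgtgc
Fgf17 A_55_P2744027 (chr14:71036316-71036375, - strand): agtacttgtgtatcccagggtgggcaccat

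Large ratios were concentrated in one region of the arrays. Of the 1277 tested probes with a computed ratio beyond 4-fold, 92.87% lay in the later rows (past row 192 of 384), and so did all 4 such member probes, for Fgf3, Fgf13, Fgf17 and Etv1, each measured on 1 array only. The later rows held 20 of the 42 tested member probes and 6 of the 8 that met the criteria. In the earlier rows alone, 1 member probe of 22 was lower (Fgfr4, where 2.6% of all tested probes were lower) and 2 were higher (Dusp4 and Spry1, where 1.91% were higher). Of 7 Wnt pathway target genes used to check the treatment, 6 were tested, and 3 were called higher and 0 lower. Lef1 was 2.997-fold higher (239.0 to 690.5), Rnf43 was 2.49-fold higher (69.3 to 166.7), and Axin2, detected on the CHIR99021 array alone with a signal of 37.9, was at least 1.66-fold higher but did not meet the criteria (Z-score 0.91). Nkd1 was at least 25.8-fold higher at a spot that was uneven on the CHIR99021 array. Near that spot, within 3 rows and columns, 12 spots differed by more than 4-fold and were also detected on the CHIR99021 array alone. Their part in the Nkd1 value was not tested. Znrf3 (1.59-fold) and Notum (1.303-fold) did not meet the criteria, and Sp5 was below background on both arrays. Of the 6 tested, only Znrf3 lay in the earlier rows.

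The label of the cells was set against marker genes. Of 9 epithelial markers, 4 were detected on each array, and the defining markers Cdh1, Epcam, Dsp and Krt8 were below background on both. All 11 mesenchymal markers, Col1a1, Col1a2 and Vim among them, were detected on both arrays. Summed over each list, the epithelial signal was 2895.5 on the control and 3536.0 on the CHIR99021 array, and the mesenchymal signal was 479736.2 and 434943.4. These sums may be compared between the arrays but not between the lists, and rest largely on Trp63 in the epithelial list (2306.1 on the control array) and on Col1a1 and Col1a2 in the mesenchymal list (122886.6 and 270782.9). Of the epithelial markers, Krt5 was called higher, but its spot was uneven on the CHIR99021 array, and its control signal was at background level. Of 3 endothelial markers, 1 was detected in control and 0 in CHIR99021-treated cells, and both leukocyte markers were detected on both, although only 1 probe of Ptprc was above background. The part of the cell make-up in the results below was not tested, and fewer cells of a type and less RNA per cell cannot be told apart in bulk RNA.

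Of the 41 member genes, 28 (68.29%) were detected in control cells, beside 48.86% of all gene names, and 25 in CHIR99021-treated cells. Another 12 were below background on both arrays. These were 10 ligands, Fgf1, Fgf2, Fgf4, Fgf8, Fgf9, Fgf14, Fgf15, Fgf16, Fgf20 and Fgf22, and the feedback genes Spry3 and Spry4. No value of theirs is given, since the arrays set only an upper bound on their signal.

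**Figure D1:**
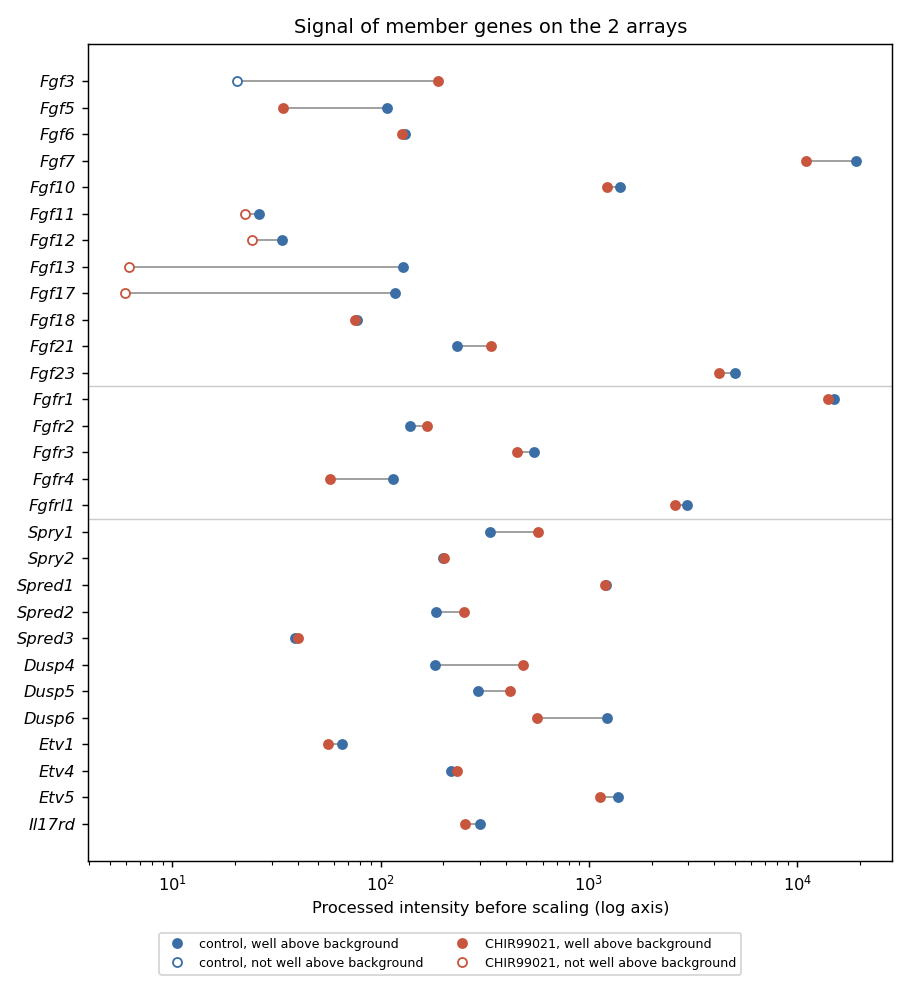
Processed intensity before scaling (log axis) of the 29 member genes detected on either array, at the probe with the highest mean signal, for control (blue) and CHIR99021 (red), with grey lines between ligands, receptors and feedback genes. Open circles are signals not well above background. Distances between the points of a gene may be read, and levels of different genes may not be compared; Fgf3, Fgf13 and Fgf17 have the widest gaps, each with 1 open point.

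Among the ligands, the Fgf7 subfamily, which binds the epithelial isoform of Fgfr2 and is classically made by mesenchyme, held the only ligand that was measured on both arrays and met the criteria. Fgf7 gave a signal of 19126.5 on the control and 11045.1 on the CHIR99021 array, a log2 ratio of -0.74 ± 0.20 and a Z-score of -3.22. Its control signal was thus higher, and the ratio stayed between 0.562 and 0.627 under 9 ways of scaling. Fgf10, a mesenchymal ligand needed for budding of many epithelial organs, had signals of 1417.0 and 1220.1, a ratio of 0.893. At a second Fgf10 probe the signals were 52.6 and 48.4, a ratio of 0.954. Both Fgf10 ratios lay within 1 error of 1.

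Fgf3, which is made in the enamel knot and the dental papilla, had a signal of 20.5 on the control array, not well above background, and of 188.5 on the CHIR99021 array. It was at least 8.26-fold higher at this probe, with a Z-score of 3.21 for the computed ratio. With normexp background correction the computed ratio was 3.31, under this limit, which holds for the processed signal as deposited. The spot lay in row 201 and had 3 spots near it, within 3 rows and columns, that were also detected on the CHIR99021 array alone and differed by more than 4-fold. The other 2 probes of Fgf3 were below background on both arrays, so that the higher signal rested on 1 spot. Fgf22, the remaining gene of the subfamily, was below background.

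In the Fgf4 subfamily, Fgf5, known for ending the growth phase of the hair follicle, had a control signal of 107.4 and a CHIR99021 signal of 33.8. Its ratio was 0.326 (log2 -1.62 ± 0.32), but with a Z-score of -1.62 it did not meet the criteria, and with normexp background correction the ratio was 0.568. With dim probes restricted to those above background on both arrays, or with uneven spots left out, Fgf5 met them. Fgf6, a ligand studied in muscle, had signals of 130.9 and 126.3, a ratio of 1.00 whose direction changed with the scaling. Fgf4, another enamel knot ligand, was below background on both arrays.

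In the Fgf8 subfamily, Fgf17 had a control signal of 116.7 and a CHIR99021 signal of 5.9. It was at least 4.28-fold lower, and its Z-score was -2.17, whereas with normexp background correction the computed ratio was 0.376, a smaller difference than this limit. The control spot was uneven, with a pixel SD of 0.39 of its mean, above the limit of 0.26 set by the 99th percentile of the earlier rows, and 5 spots near it were also bright on the control array alone. Fgf18, which acts on bone and cartilage, had signals of 76.7 and 75.7, a ratio of 1.02 whose direction changed with the scaling. Fgf8, an early dental epithelial ligand, was below background.

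Of the intracellular genes, 3 of 4 were detected without the treatment and 0 with it. Fgf13, which binds sodium channels and microtubules in neurons, had signals of 128.0 and 6.2 and was at least 4.69-fold lower, with a Z-score of -2.47. With normexp background correction its computed ratio was 0.378, again a smaller difference than the limit, and the other 2 probes of Fgf13 were below background on both arrays. As for Fgf17, its control spot was uneven, at a pixel SD of 0.368 of the mean, and 4 spots near it were bright on the control array alone. Fgf12 had signals of 33.6 and 24.0 and was at least 1.23-fold lower, without meeting the criteria. Its computed log2 ratio of -0.43 had an error of 0.50 and so lay within 1 error of no change. Fgf11 had signals of 26.2 and 22.4, both close to the lowest signal well above background (23.68 on the control and 26.3 on the CHIR99021 array), and no fold is given. The loss of detection of Fgf11 and Fgf12 was thus a matter of a few units of signal.

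The endocrine FGFs circulate and act with Klotho proteins. Fgf21, a metabolic stress hormone, had signals of 231.7 and 338.1, a ratio of 1.51 (log2 0.60 ± 0.21). It passed the ratio but not the Z-score, which was 1.47. Fgf23, a bone-derived regulator of phosphate, had signals of 5027.4 and 4225.1, a ratio of 0.872 within 1 error of 1. Over the 12 detected ligands the median log2 ratio was -0.19, and over the 7 measured on both arrays -0.16, beside 0.03 over all tested probes. The ligands therefore shared no direction: 8 had a computed ratio below 1 and 4 above it. The 8 include the intracellular Fgf11, Fgf12 and Fgf13, which do not act as receptor ligands and were detected on the control array only.

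All 5 receptor genes were detected on both arrays, and none was called lower or higher. Fgfr1, the receptor used widely in mesenchymal cells, was represented by 4 probes measured on both arrays. At the brightest of them the signals were 14933.6 and 14127.1, a ratio of 0.981 whose direction changed with the scaling. The other ratios were 0.843, 0.868 and 1.01, so that the 4 probes spanned 0.27 on the log2 scale. Fgfr2, whose epithelial and mesenchymal isoforms differ in ligand binding, had signals of 138.8 and 166.5, a ratio of 1.24 (log2 0.32 ± 0.22). The array's gene names do not separate those isoforms.

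Fgfr3, best known for restraining cartilage growth, had signals of 547.0 and 449.8, a ratio of 0.853. A second Fgfr3 probe had signals of 26.9 and 28.5, of which only the control value was flagged as well above background, so no fold is given for it. Fgfr4, a receptor that pairs with β-Klotho in liver, had a control signal of 115.1 and a CHIR99021 signal of 56.9. Its ratio was 0.513 (log2 -0.96 ± 0.27), the lowest of the receptors, and its Z-score was -1.30. The other 2 probes of Fgfr4 were below background, and the ratio ranged from 0.495 to 0.740 over the scalings. Fgfr4 met the criteria for lower in the earlier rows alone and with uneven spots left out. Fgfrl1, which lacks the kinase domain and is regarded as a decoy or modulator, had signals of 2950.9 and 2590.6, a ratio of 0.911. The median log2 ratio of the receptors was -0.14, with 4 ratios below 1, that of Fgfr1 included, and 1 above it.

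**Figure D2:**
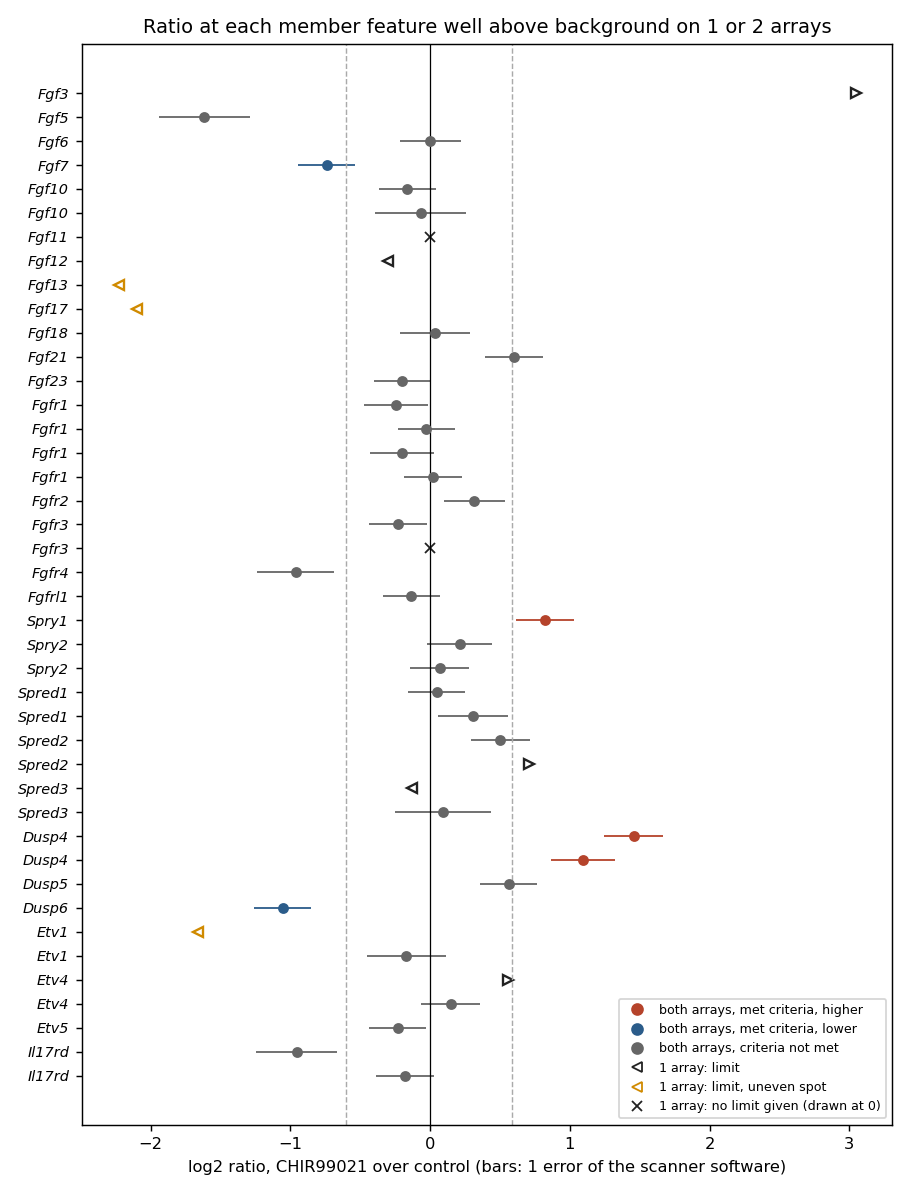
Log2 ratio of CHIR99021 over control for each of the 42 tested member probes, with bars of 1 error of the scanner software, dashed lines at ratios of 0.66 and 1.5 and triangles for limits where 1 array was well above background (crosses at 0 where no limit is given). Of the 32 probes measured on both arrays, 23 lie between the dashed lines; Dusp4 at both probes and Spry1 lie to the right and met the criteria, and Dusp6 and Fgf7 lie to the left and met them. The limits of Fgf3, Fgf13 and Fgf17 belong to probes that also met them.

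The feedback genes went in different directions. Dusp4 encodes a nuclear phosphatase that inactivates ERK and other MAP kinases. At its brighter probe, in row 239, the signal was 182.7 on the control and 483.5 on the CHIR99021 array, which gave a log2 ratio of 1.46 ± 0.21 and a Z-score of 3.93. At its other probe, in row 15, the signals were 86.8 and 178.6, a ratio of 2.13 (log2 1.09 ± 0.23) with a Z-score of 2.06. These probes lie in different parts of the array and at different mm9 coordinates, and both met the criteria. The array lists them under different transcript entries. The log2 ratios differed from each other by 0.36, beside a combined error of 0.31. With normexp background correction or a floor on low signals, 1 of the 2 probes met the criteria.

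Dusp6 encodes the cytoplasmic phosphatase that acts mainly on ERK and is widely used as a readout of FGF signalling. Its signal was 1217.1 on the control and 564.0 on the CHIR99021 array, which gave a log2 ratio of -1.06 ± 0.20 and a Z-score of -3.04. It was thus lower at the probe where it was measured, with a ratio between 0.463 and 0.521 over the scalings. The spot was even, but it lay in row 371, and 7 spots near it were bright on the control array alone, and their part in this value was not tested. Dusp5, a nuclear ERK phosphatase, had signals of 292.9 and 416.6, a ratio of 1.48 (log2 0.56 ± 0.21), and its Z-score of 1.36 did not meet the criterion.

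Of the Sprouty genes, which encode inhibitors of receptor tyrosine kinase signalling, Spry1 had a signal of 334.4 on the control and 569.3 on the CHIR99021 array. The log2 ratio was 0.82 ± 0.21 and the Z-score 2.23, in row 51, and the ratio stayed between 1.66 and 1.85 over the scalings. Spry2 had signals of 199.4 and 201.5, a ratio of 1.05, and at a second probe 86.6 and 96.7, a ratio of 1.16. Spry1 thus met the criteria for higher and Spry2 did not, while Spry3 and Spry4 were below background.

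The Spred proteins are relatives of Sprouty that block activation of RAF. Spred2 had signals of 185.2 and 252.5, a ratio of 1.41 (log2 0.50 ± 0.21), and at a second probe signals of 18.2 and 37.4, at least 1.64-fold higher. Neither probe met the criteria, although both were higher on the CHIR99021 array. Spred1 had signals of 1202.4 and 1196.3, a ratio of 1.03 whose direction changed with the scaling, and 1.24 at its other probe. Spred3 had signals of 38.9 and 40.0, a ratio of 1.07. A further Spred3 probe had a computed ratio of 0.915 (log2 -0.13 ± 0.47) that also served as its limit. These differences of Spred1 and Spred3 lay within the errors or close to them.

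The PEA3-type ETS factors are transcription factors induced by FGF signalling through ERK, and none of the 3 was called at its brightest probe. Etv4 had signals of 218.0 and 232.5, a ratio of 1.11. At its second probe the signals were 28.4 and 40.3, a computed ratio of 1.47 (log2 0.56 ± 0.43) that also served as its limit. Etv5 had signals of 1381.7 and 1133.8, a ratio of 0.851, within 2 errors of 1. Etv1 had signals of 65.2 and 55.9, a ratio of 0.889, while another of its probes, in row 372, read 86.2 and 6.4, at least 3.16-fold lower at an uneven spot. The Etv1 probes therefore disagreed, and the one with the large difference lay in the later rows. With a Z-score of -1.65 that probe was not called, but it was called lower with normexp correction or without the filter on dim probes.

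Il17rd, also called Sef, encodes a membrane protein that inhibits FGF receptor signalling. Its brighter probe had signals of 299.3 and 254.6, a ratio of 0.882, and its second probe 91.8 and 45.7, a ratio of 0.516. The log2 ratios differed by 0.78, beside a combined error of 0.36, so that the size of the difference depended on the probe. Neither probe met the criteria. Over the 12 detected feedback genes, 8 had a ratio above 1 and 4 below it, with a median log2 ratio of 0.08 and a range from -1.06 to 1.46. Against the software's error, 5 of the 32 member probes measured on both arrays were lower by more than 2 errors (15.62%) and 6 were higher (18.75%), beside 9.03% and 10.29% of 25025 probes.

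**Figure D3:**
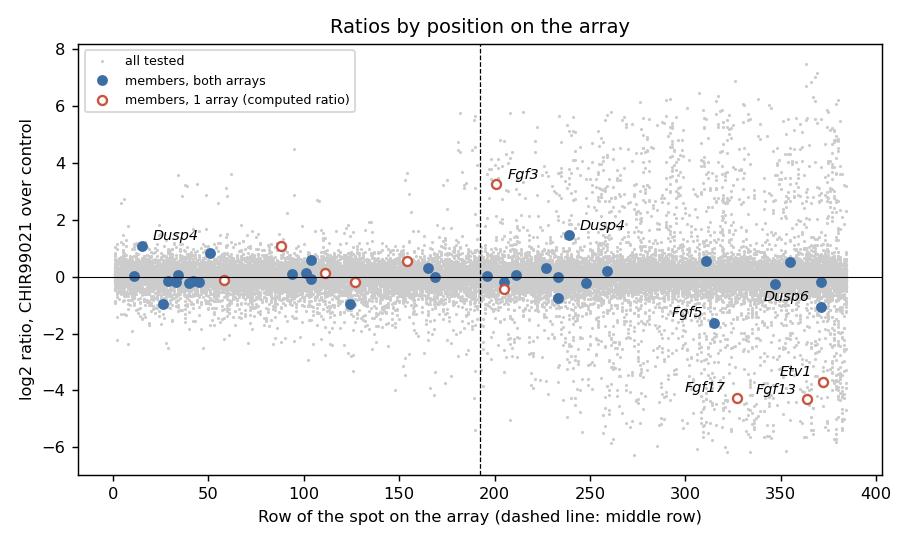
Log2 ratio of CHIR99021 over control against the row of the spot for all 28066 tested probes (grey), member probes measured on both arrays (filled) and on 1 array (open, computed ratio rather than a limit). The grey points spread most past the dashed middle row, where Fgf3, Fgf13, Fgf17 and the 1-array probe of Etv1 lie; Dusp4 has 1 probe on each side of it.

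The other genes of the pathway were counted from lists. Of 26 co-receptor and heparan sulfate genes, 22 were tested and 0 were called, with a median log2 ratio of 0.03. Kl and Klb, the Klotho co-receptors of the endocrine FGFs, were below background on both arrays, as were Fgfbp1 and Gpc3. Of 21 genes between receptor and ERK, all were tested and 1 was called higher, with a median of -0.01. This was Frs3, a docking protein of FGF receptors, at 218.5 on the control and 549.3 on the CHIR99021 array, a ratio of 2.61 (log2 1.38 ± 0.21) with a Z-score of 3.31, in row 367. Near this spot, 12 spots were detected on the CHIR99021 array alone, and their part in the value was not tested. Of 3 splicing regulators of the receptors, 2 were tested and 0 were called, and Esrp1, which promotes the epithelial isoform of Fgfr2, was below background on both arrays.

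Of 12 other ERK-responsive genes, 2 were called higher and 0 lower, with a median of 0.14. Fosl1, a subunit of AP-1, had signals of 1712.0 and 4314.5, a ratio of 2.61 (log2 1.39 ± 0.20) with a Z-score of 4.32. Ier3, an early response gene, had signals of 4925.6 and 10718.4, a ratio of 2.26 (log2 1.17 ± 0.20) with a Z-score of 3.60. The immediate early genes Fos, Egr1 and Ier2 were not called, with ratios of 0.622, 0.920 and 1.22. Fos passed the ratio criterion for lower but not the Z-score, which was -1.61. Of 7 other phosphatases of this family, 1 was called higher and 0 lower, with a median of 0.11. This was Dusp2, another nuclear ERK phosphatase, at 300.5 and 555.9, a ratio of 1.92 (log2 0.94 ± 0.21) with a Z-score of 2.45. Of 9 other ETS factors, 1 was called higher and 0 lower, with a median of -0.01. It was Ets2, itself a target of ERK phosphorylation, at 5644.0 and 8980.5, a ratio of 1.65 (log2 0.72 ± 0.20) with a Z-score of 2.07. Over these lists together, 5 of 73 tested genes, each at its brightest probe, were called higher (6.85%) and 0 lower. Among all tested probes, dim ones and several per gene included, 2.35% were called higher, so these shares differ in unit. The list medians ran from -0.31, for the 2 splicing regulators tested, to 0.14, beside 0.03 over all tested probes.

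**Figure D4:**
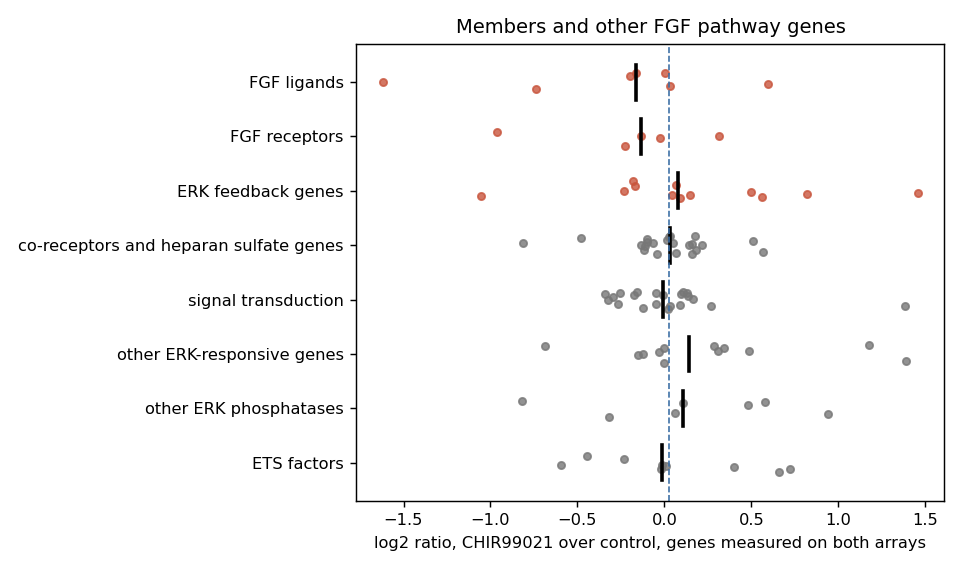
Log2 ratio of CHIR99021 over control of each gene measured on both arrays (points) and the median of each group (black bars), for members (red) and other lists of the pathway (grey), with the median of all tested probes as a dashed line. The ligand median of these genes is -0.16, the receptor median -0.14 and the feedback median 0.08, and single genes such as Fgf5, Dusp6 and Dusp4 lie far from their group's median.

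Member promoters, called or not, were searched for short motifs, since β-catenin acts through TCF/LEF factors and ERK through ETS factors and AP-1. RefSeq promoters (GRCm38.p6) were found for 30 of the 41 members, as 39 of 32851 promoters, and Dusp4, Fgf17 and 9 other members were not among them. In the 250 bases before the start, both strands were searched for CTTTGAT and CTTTGTT (TCF/LEF), GGAAGT and CCGGAA (ETS), TGACTCA (AP-1), TGACGTCA (CRE) and TATAAA. The TCF/LEF motif CTTTGAT was found in 1 member, Fgf6, and in 3.21% of all promoters. GGAAGT was found in 5 members (Dusp5, Etv5, Fgf13, Fgfrl1 and Spred2) and in 19.74% of all promoters, and CCGGAA in 4 members (Fgf5, Fgf12, Fgfr4 and Fgfrl1) and in 12.03%. TGACTCA was found in 1 member (Fgf12) and in 4.46%, TATAAA in 2 members (Etv1 and Fgf21) and in 12.37%, and CTTTGTT and TGACGTCA in 0 members and in 5.03% and 1.55%.

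The upstream windows of Spry1, Dusp6 and Fgf7 are shown because these genes were measured on both arrays, met the criteria in opposite directions and have a promoter in the table. None of the 7 motifs is in them, which says only that these letters are not in the window. Capitals mark GGAA or its reverse complement TTCC, the core shared by ETS sites, which also lies inside both ETS motifs above and is in 93.45% of all promoters, with a median of 3 matches. The Spry1 window (chr3:37639697-37639946) holds 1 match, the Dusp6 window (chr10:99262981-99263230) holds 6 and the Fgf7 window (chr2:126034408-126034657) holds 4, all on the + strand of GRCm38.p6.
Spry1: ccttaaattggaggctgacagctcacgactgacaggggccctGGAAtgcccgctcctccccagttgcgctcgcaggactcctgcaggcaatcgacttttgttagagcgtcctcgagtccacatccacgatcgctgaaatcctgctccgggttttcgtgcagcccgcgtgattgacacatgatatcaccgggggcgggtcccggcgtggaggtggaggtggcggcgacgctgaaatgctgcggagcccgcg
Dusp6: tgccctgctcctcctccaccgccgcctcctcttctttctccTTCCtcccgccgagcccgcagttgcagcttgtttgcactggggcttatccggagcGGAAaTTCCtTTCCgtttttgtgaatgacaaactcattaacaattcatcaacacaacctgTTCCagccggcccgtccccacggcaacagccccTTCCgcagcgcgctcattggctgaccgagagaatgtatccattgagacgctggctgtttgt
Fgf7: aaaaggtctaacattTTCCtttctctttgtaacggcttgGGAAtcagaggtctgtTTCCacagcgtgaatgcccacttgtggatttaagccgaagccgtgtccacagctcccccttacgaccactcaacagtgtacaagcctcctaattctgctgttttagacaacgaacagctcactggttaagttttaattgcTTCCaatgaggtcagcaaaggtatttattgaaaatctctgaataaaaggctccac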

How the data were processed

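RNA of mDE6 cells (1 control array and 1 CHIR99021 array, 6 h) was labelled with Cy3 and hybridised to Agilent arrays. The deposited files hold an intensity per spot, background-subtracted and not normalized between arrays, with flags for spots well above background, and a table of normalized intensities. The file headers name Feature Extraction 10.7.1.1 and the mouse build mm9, whereas the submitters' processing notes name Feature Extraction 9.5.1.1 and the methods a human array. In the normalized table both columns had a median of 20.4 and, once sorted, equal values within 1% at 100.0% of positions. Its scale followed the spot intensities (linear), and its method is not given in the sources used here. It was used as an alternative. No depth applies, and the number of arrays limits the precision.

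The log2 intensity was scaled to the 75th percentile of each array with pandas 2.3.3 and numpy 2.4.6 under Python 3.11.15. Control and outlier spots were left out and spots of the same probe averaged. The 28066 probes detected on either array were tested. The sign of the methods' Z-score criterion, which is not printed, was read as negative. A limit was set against the higher of the probe's own signal and the lowest signal well above background on that array. Calls used the computed ratio and were tested on simulated data. With 1 array per condition there was no statistical test.

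Every member detected on either array is named, and of the other lists the genes that met the criteria, with a few others named after their values were seen. The members and lists were chosen with earlier results of these data known. Alternatives were other scalings, normexp correction of the background (limma 3.58.1 under R 4.3.3, offset 50), other filters and Z-scores, the mean over probes, earlier rows alone, and uneven spots left out. Figures were drawn with matplotlib 3.10.9.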

Additional observations from a re-analysis of the deposited data

How the results depend on the processing

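No paired analysis was possible because there was a single array per condition. All 18 alternatives were chosen with earlier results of these data known. A median counted as moved when it differed by over 0.03 (log2), the SD between repeated spots, and a count when it differed by more than 1.5 times. For the moved values the cause was not tested, apart from the fewer probes in the earlier rows. The 4 lower member probes were 8 with a Z-score by median and MAD and 8 by the ratio alone, which added Fgf5, Fgfr4, Etv1 and Il17rd, and 1 in the earlier rows. The 4 higher ones were 1 when all probes shared 1 mean and SD (Fgf3), where the 3 lower ones were Etv1, Fgf13 and Fgf17, so that Dusp4, Spry1, Dusp6 and Fgf7 lost their calls, and 2 in the earlier rows. Without uneven spots there were 4 of each, with Fgf5 and Fgfr4 in place of Fgf13 and Fgf17. Of 28 members detected on the control array, 18 remained in the earlier rows.

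The ligand median (log2 -0.19) was -0.24 with quantile scaling, cyclic loess, no scaling, the percentile over probes detected on both arrays and the authors' table, -0.16 with median scaling (-0.155), -0.12 with spike-ins, -0.10 with normexp and -0.14 without a filter. The receptor median (-0.14) was -0.19 with quantile scaling, no scaling, that percentile and the authors' table, -0.20 with loess, -0.10 with median scaling, -0.068 with spike-ins and -0.081 in the earlier rows. The feedback median (0.08) was 0.11 with median scaling, 0.15 with spike-ins, 0.027 with no scaling, 0.029 with that percentile, 0.16 with the mean over probes and 0.12 in the earlier rows. All medians kept their sign. No scaling moved the median of all tested probes by more than 0.1, and no called member changed direction.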

Other observations

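FGF-related transcripts outside the members were also on the array. Fibp, an intracellular protein that binds FGF1, was measured on both arrays at 3 probes. Its signals were 3806.3 on the control and 3105.3 on the CHIR99021 array (ratio 0.846), 972.4 and 681.3 (ratio 0.727), and 119.4 and 103.7 (ratio 0.901). Each of the 3 ratios was below 1 and none was at or under 0.66. No error is given for these ratios, which come from the same pair of arrays. Fgf2os, transcribed opposite Fgf2, and Frs3os, named as the opposite strand of Frs3, were not well above background on either array.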
